A study of Mus musculus with 12 samples.

Results

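The Notch pathway was described here in mouse liver through 10 genes: the ligands *Jag1*, *Jag2* and *Dll4*, the receptors *Notch1*, *Notch2* and *Notch3*, the nuclear factor *Rbpj*, and the effectors *Hes1*, *Hey1* and *Heyl*. They were taken by gene name from the 25676 genes of the deposited expression table, and all 10 were found there. The libraries came from whole livers of 12 C57BL/6 mice at 3-4 months of age, 6 labelled WT and 6 labelled Foxa3-Cre YAP1 KO (KO below), with 3 males and 3 females of each genotype and a separate animal number for each mouse. Frozen liver was extracted as total RNA and sequenced in bulk. Cre driven by *Foxa3* acts in the embryonic foregut endoderm, from which hepatocytes and bile duct cells arise, so the endothelial, stromal and blood cells of these livers are not its targets. Whether the WT mice carried floxed alleles or Cre is not given in the sources used here. KO was compared with WT, because loss of Notch signalling is known to give a lack of bile ducts that resembles the one seen after loss of YAP1.

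Notch signalling passes between touching cells. A ligand of the Jagged or Delta-like family on the surface of one cell binds a Notch receptor on its neighbour. Pulling and proteolytic cleavage then free the intracellular part of the receptor, which enters the nucleus, joins the DNA-binding protein RBPJ and the Mastermind co-activators, and switches on *Hes* and *Hey* genes, which encode repressors of transcription. In the developing liver, *Jag1* made by portal mesenchyme acts on *Notch2* in neighbouring hepatoblasts, which then form the bile ducts. Human mutations of JAG1 or NOTCH2 cause Alagille syndrome, whose patients have too few bile ducts. *Dll4* and *Notch1* are best known from blood vessels, and *Notch3* and *Heyl* from the mural cells around them.

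Expression was analysed as TPM (a share of each library's transcripts corrected for gene length) on the log2(TPM + 1) scale, in 12278 genes with a mean of at least 0.5 TPM. The reads recovered from the steps of the TPM values came to 17956706 to 25518105 per library. *Yap1*, a transcriptional co-activator of the TEAD factors and the gene removed in KO, had a lowest, median and highest value of 23.0, 28.9 and 34.9 TPM in WT and 0.994, 2.10 and 3.11 TPM in KO. Its KO minus WT difference was -3.36 (limma adjusted p = 4.95e-09), and by *Yap1* every library matched its genotype label. Sex was taken from the labels. The 2 genotypes differed in overall scale: the median difference over all tested genes was 0.35 in TPM as deposited and -0.04 after median-of-ratios rescaling, whose size factors averaged 0.855 in WT and 1.18 in KO. The 9 members that could be tested are therefore given on both scales. In bulk tissue, fewer cells of a type and less RNA per cell cannot be told apart. The hepatocyte markers, summed over 7 genes led by *Alb*, took 87036 to 111858 TPM in WT and 60733 to 85823 TPM in KO, the levels of a tissue that is mostly hepatocytes. The 2 ranges did not overlap. Of the 7 markers, 2 were lower and 1 higher in KO as deposited, and after rescaling 3 were lower, the same 2 and *Alb* (-0.74), and 0 higher. The part of this shift in the members' values was not tested.

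Of the 9 members that could be tested, *Notch1*, *Notch2*, *Rbpj*, *Hes1* and *Hey1* were higher in KO in TPM as deposited, and none was lower, either after adjustment or at an unadjusted limma p below 0.05. *Hey1* was the only member that passed on both scales, on recovered reads and in each of the 12 fits that left out a library on either scale. It reached the filter of 0.5 TPM only through KO, with means of 0.281 TPM in WT and 1.03 TPM in KO. *Notch2* passed on both scales and on recovered reads, but by a small margin once the libraries were rescaled. *Dll4* was the only member that fell, and only after rescaling. *Jag1*, *Notch3* and *Heyl* did not pass under either scaling, and *Jag2* was too low to test.

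Read against all genes, the count of 5 of 9 higher members in TPM as deposited is close to the background, since 50.1% of all tested genes were higher in KO and 4.82% lower (limma, adjusted p below 0.05). After rescaling 2 of 9 members were higher and 1 lower, beside 20.9% and 18.7% of all tested genes. With limma-voom, which weights each value by its precision, on the recovered reads, 3 of 9 members were higher (*Notch2*, *Hes1* and *Hey1*) and none lower, beside 20.9% and 18.5%. The median difference over the 9 members was 0.47 in TPM as deposited and 0.08 after rescaling, beside 0.35 and -0.04 over all tested genes. The authors' deposited table, a comparison of KO with WT deposited beside these libraries, lists 2 of the 10 members with an FDR p-value below 0.05: *Hey1* with a log2 fold change of 2.82 and *Hes1* with 1.03. In the authors' deposited table *Notch2* has a log2 fold change of 0.22 (FDR p-value 0.42), *Notch1* 0.09 (0.82) and *Rbpj* 0.05 (0.89). By that criterion the share of its 17332 genes that were higher in the authors' deposited table was 14.9%, and the share lower 9.27%.

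**Figure D1:**
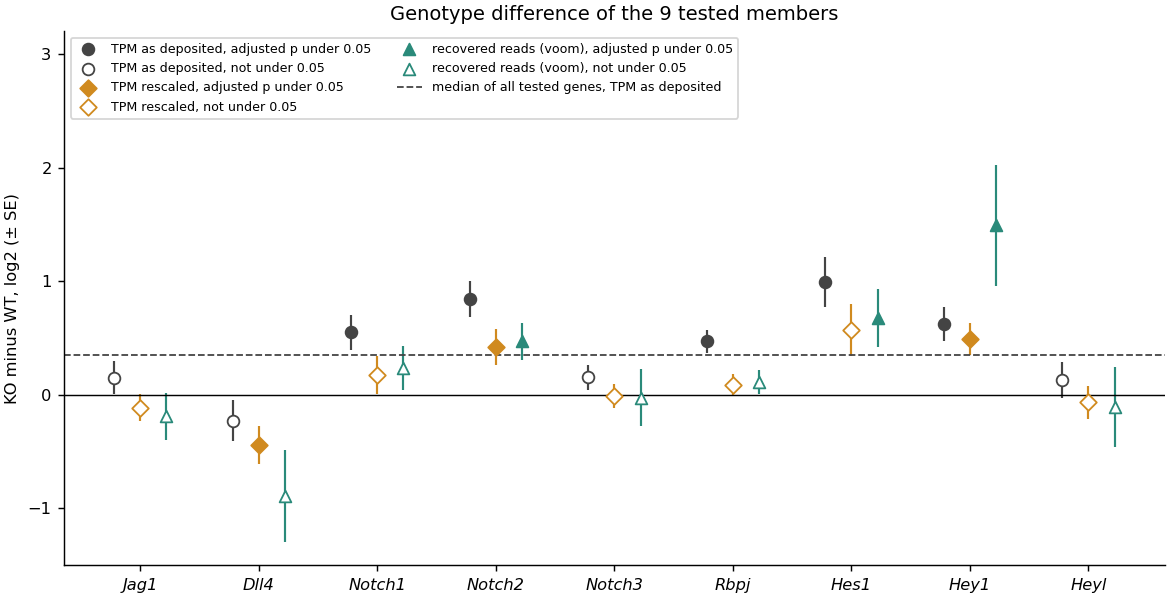
KO minus WT difference of each tested member (log2, vertical axis) with its standard error, from TPM as deposited (circles), rescaled TPM (diamonds) and recovered reads (triangles), filled where the adjusted p was below 0.05. *Hey1* and *Notch2* are filled in all 3 fits, and the dashed line at 0.35 is the median of all tested genes in TPM as deposited.

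Promoter sequences are shown for *Notch1*, *Notch2* and *Rbpj*, which were all called higher in TPM as deposited, because the pathway's own DNA-binding factor and the partner of YAP1 recognise known short motifs. RefSeq (GRCm38.p6) supplied the 250 bases before and 50 after each start. Capitals mark TGGGAA, the core bound by RBPJ, and GGAATG, the core bound by TEAD, on either strand, so that TTCCCA and CATTCC are the same motifs read on the opposite strand. *Notch1* lies at chr2:26503773-26504072 on the minus strand, *Notch2* at chr3:98013288-98013587 on the plus strand, and *Rbpj* at chr5:53590096-53590395 on the plus strand, the upstream of its 2 listed starts. The windows of *Notch1* and *Rbpj* lie inside the spans that GENCODE gives these genes, whose longest transcripts begin farther upstream.
Notch1: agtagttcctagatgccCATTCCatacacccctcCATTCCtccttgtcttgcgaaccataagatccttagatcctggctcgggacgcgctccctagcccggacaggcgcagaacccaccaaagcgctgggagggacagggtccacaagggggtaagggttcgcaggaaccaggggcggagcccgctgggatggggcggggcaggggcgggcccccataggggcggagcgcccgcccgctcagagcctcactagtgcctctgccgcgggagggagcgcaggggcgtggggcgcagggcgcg
Notch2: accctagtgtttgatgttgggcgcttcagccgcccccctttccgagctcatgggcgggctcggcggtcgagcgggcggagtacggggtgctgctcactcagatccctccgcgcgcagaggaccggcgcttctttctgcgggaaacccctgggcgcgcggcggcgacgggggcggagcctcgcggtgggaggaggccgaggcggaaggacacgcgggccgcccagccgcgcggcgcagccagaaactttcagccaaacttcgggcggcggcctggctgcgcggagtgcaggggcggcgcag
Rbpj: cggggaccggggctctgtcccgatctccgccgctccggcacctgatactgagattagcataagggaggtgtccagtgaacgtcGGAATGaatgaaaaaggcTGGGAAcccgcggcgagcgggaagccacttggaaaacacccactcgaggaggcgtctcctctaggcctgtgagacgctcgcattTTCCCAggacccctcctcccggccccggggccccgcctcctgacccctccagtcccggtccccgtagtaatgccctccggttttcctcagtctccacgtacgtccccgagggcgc
The *Notch1* window held the TEAD core 2 times, its first printed letter at positions -233 and -216 relative to the start. The *Rbpj* window held the TEAD core at position -167 and the RBPJ core at positions -149 and -65. No motif overlapped another. The *Notch2* window held neither motif. Among all 32851 promoter windows of this length, 25.6% held the RBPJ core and 14.7% the TEAD core. Of the 10 members, 7 had a window in the table, and *Jag1*, *Jag2*, *Dll4* and *Notch3* held neither motif. *Hes1*, *Hey1* and *Heyl* were not matched. The motifs are letters in these windows, and binding was not measured.

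Among the ligands, no member rose. *Jag1* (chr2:137081456-137116644, minus strand; GENCODE M21 on GRCm38 here and for every member below), the ligand whose loss impairs bile duct formation, had a lowest, median and highest value of 0.828, 1.28 and 1.65 TPM in WT and 1.00, 1.31 and 2.29 TPM in KO. The ranges overlapped, with 2 KO mice above all WT mice and 2 WT mice below all KO mice. Its difference was 0.15 ± 0.145 (SE, limma adjusted p = 0.408) as deposited and -0.12 ± 0.118 (limma adjusted p = 0.465) after rescaling. The sign therefore depended on the scale, and neither value exceeded the spread between mice.

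*Dll4* (chr2:119325784-119335962, plus strand), the ligand of sprouting and arterial endothelium, measured 0.852, 0.674 and 1.04 TPM in the WT males and 2.02, 1.49 and 0.834 TPM in the WT females. In KO it measured 0.568, 0.172 and 0.796 TPM in males and 1.79, 0.443 and 1.52 TPM in females. The genotypes overlapped in both sexes, and so did the sexes in each genotype. The difference was -0.23 ± 0.183 (limma adjusted p = 0.304) as deposited. After rescaling it was -0.45 ± 0.167 (limma adjusted p = 0.0485), and the 3 KO males then lay below the 3 WT males, as did 18% of all tested genes. That call was kept in only 3 of 12 fits that left out a library, those without WT female replicate 3, KO female replicate 1 or KO female replicate 3, and was lost in the other 9 (-0.55 to -0.35 over all 12). On recovered reads the difference was -0.89 ± 0.406 with a limma-voom adjusted p of 0.0979.

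*Jag2* (chr12:112907819-112929776, minus strand), the second Jagged ligand, was scarcely detected. It had 0 to 13 recovered reads per library and a mean of 0.0533 TPM ± 0.0462 (SD, n = 6) in WT and 0.0902 TPM ± 0.0826 (SD, n = 6) in KO. The KO male without a read allows up to 0.0674 TPM, the worth of 3 reads there, for counting error only. Without the filter on low values its difference was 0.05 ± 0.0427 (limma adjusted p = 0.42), and a change was not detectable at this depth.

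Among the receptors, *Notch2* (chr3:98013527-98150361, plus strand), the receptor that drives bile duct formation, was the most abundant and the one with the clearest difference. It measured 7.09, 9.55 and 7.27 TPM in WT males and 6.30, 6.47 and 7.44 TPM in WT females. In KO males it measured 12.4, 13.0 and 23.4 TPM, and in KO females 10.6, 15.8 and 11.1 TPM. All 6 KO values lay above all 6 WT values, which held for 28.7% of all tested genes. The difference was 0.84 ± 0.159 (limma adjusted p = 0.000615) as deposited. After rescaling the ranges overlapped, 6.86 to 13.3 in WT and 8.38 to 17.7 in KO, and the difference was 0.42 ± 0.155 (limma adjusted p = 0.0467). That call was kept in 4 of 12 fits that left out a library, those without WT male replicate 2, KO male replicate 1, KO male replicate 2 or KO female replicate 1, and was lost in the other 8 (0.32 to 0.51 over all 12). On recovered reads it was 0.47 ± 0.163 (limma-voom adjusted p = 0.0337).

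*Notch1* (chr2:26457903-26516663, minus strand), the main receptor of endothelium and many progenitor cells, had 2.43, 3.32 and 4.98 TPM as its lowest, median and highest WT values. The same in KO were 3.97, 5.41 and 7.60 TPM. The genotypes overlapped, with 2 WT mice above the lowest KO mouse. Its difference of 0.55 ± 0.155 (limma adjusted p = 0.00902) as deposited became 0.17 ± 0.168 (limma adjusted p = 0.445) after rescaling, so the call rests on the deposited scale. *Notch3* (chr17:32120820-32166852, minus strand), the receptor of vascular mural and stellate cells, ranged from 0.374 to 0.590 TPM in WT and from 0.372 to 0.962 TPM in KO. Its KO values spanned the whole WT range, and its difference was 0.15 ± 0.110 (limma adjusted p = 0.255) as deposited and -0.01 ± 0.105 (limma adjusted p = 0.957) after rescaling.

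*Rbpj* (chr5:53466152-53657362, plus strand), the DNA-binding protein that every Notch receptor uses, was the third most abundant member. It ranged from 3.37 to 4.47 TPM in WT, with a median of 4.12, and from 5.36 to 7.07 TPM in KO, with a median of 5.96. The genotypes did not overlap in TPM as deposited, with KO higher, as for 28.7% of all tested genes, and did overlap after rescaling. The difference was 0.47 ± 0.102 (limma adjusted p = 0.00166) as deposited and 0.08 ± 0.0952 (limma adjusted p = 0.521) after rescaling. Its difference in TPM as deposited stood beside a median of 0.35 over all tested genes. Antisense genes overlap *Dll4*, *Notch1*, *Notch3* and *Rbpj* in the annotation, and *Rbpj* has the processed pseudogenes *Rbpj-ps1* and *Rbpj-ps3*. The use of strand in counting is not given in the sources used here, so reads of these pairs cannot be told apart.

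Among the effectors, *Hes1* (chr16:30064384-30067796, plus strand), the repressor most widely used as a readout of Notch activity, had the highest mean TPM over both sexes, though *Notch2* was above it on average in males of either genotype. It measured 7.58, 4.44 and 6.57 TPM in WT males and 14.2, 14.0 and 9.77 TPM in WT females. In KO males it measured 10.9, 19.2 and 8.13 TPM, and in KO females 25.0, 20.6 and 42.4 TPM. Within each sex every KO value lay above every WT value, as it did for 50.8% of all tested genes in males and 43.5% in females, while WT females overlapped KO males. The difference was 0.99 ± 0.218 (limma adjusted p = 0.00186) as deposited, 0.57 ± 0.228 (limma adjusted p = 0.0640) after rescaling and 0.68 ± 0.256 (limma-voom adjusted p = 0.0494) on recovered reads. After rescaling it passed in 1 of 12 fits that left out a library, the one without KO male replicate 3 (0.74, limma adjusted p = 0.0116). The authors' deposited table gives *Hes1* an FDR p-value of 0.01.

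*Hey1* (chr3:8663359-8667256, minus strand), a target of Notch in endothelium and other cells, was low in WT and had the largest difference of the tested members on recovered reads. Its WT mean of 0.281 TPM was below the filter of 0.5 TPM, which it passed only through KO. It measured 0.0376, 0 and 0.253 TPM in WT males and 0.440, 0.428 and 0.528 TPM in WT females. In KO males it measured 0.790, 0.884 and 0.189 TPM, and in KO females 1.98, 0.813 and 1.51 TPM. The KO females lay above all WT mice, and 1 KO male lay within the WT range. KO females lay above WT females without overlap for 43.5% of all tested genes. The values rest on few reads, 0 to 18 per WT library and 4 to 55 per KO library, and the WT male without a read allows up to 0.101 TPM, the worth of 3 reads there. Its difference was 0.62 ± 0.150 (limma adjusted p = 0.00347) as deposited and 0.49 ± 0.140 (limma adjusted p = 0.0136) after rescaling. The pseudocount of 1 TPM compresses genes at this level: on recovered reads the difference was 1.49 ± 0.532 (limma-voom adjusted p = 0.0391). Leaving out each library in turn gave 0.54 to 0.72 as deposited and 0.44 to 0.59 after rescaling, with limma adjusted p-values no higher than 0.0334.

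*Heyl* (chr4:123233556-123249875, plus strand), the Hey family member of mural cells, ranged from 0.202 to 0.915 TPM in WT and from 0.401 to 1.30 TPM in KO. The medians of 0.839 TPM in WT and 0.818 TPM in KO were close. Its difference was 0.13 ± 0.157 (limma adjusted p = 0.512) as deposited and -0.07 ± 0.143 (limma adjusted p = 0.735) after rescaling. *Hes1* and *Hey1* were called in TPM as deposited and *Heyl* was not, but a difference between *Heyl* and *Hes1* was not shown: their ratio, tested within each library, did not pass (exact permutation adjusted p = 0.09), and passed without KO male replicate 3 (-1.10, exact permutation adjusted p = 0.036).

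**Figure D2:**
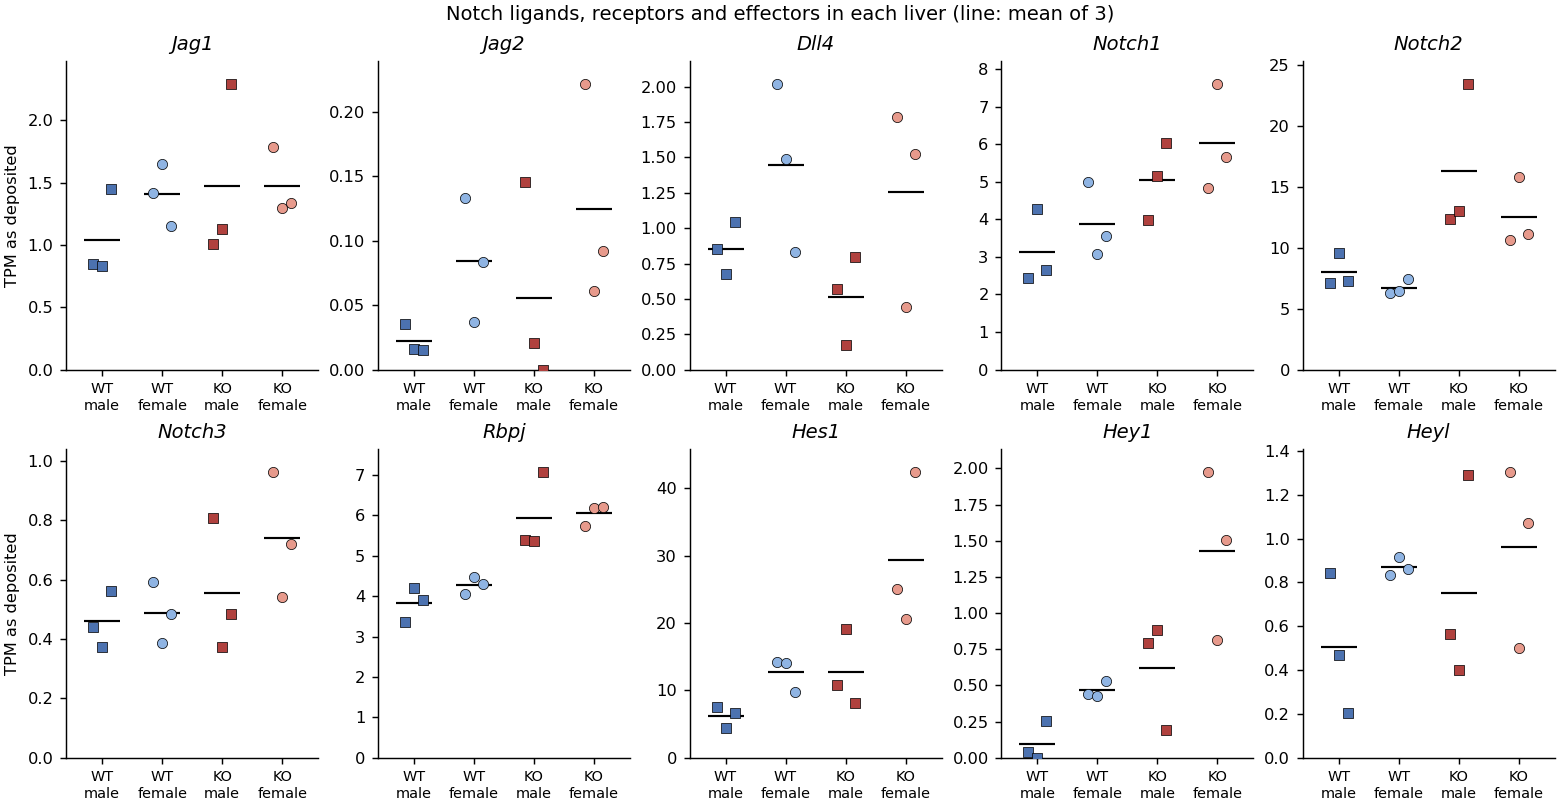
TPM as deposited of the 10 members (vertical axes, each from 0) in each of the 12 livers by genotype and sex, where a point is 1 mouse and a line the mean of 3. For *Notch2* and *Rbpj* all KO points lie above all WT points, and *Hes1* is higher in females than in males of either genotype.

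The 2 sexes were next taken separately, from a model of the 4 group means. In males *Notch2* (0.90), *Rbpj* (0.52) and *Hes1* (0.88) were higher in KO, with limma adjusted p-values of 0.00769, 0.0132 and 0.0370, beside 43.3% of all tested genes. In females the same 3 genes (0.79, 0.42 and 1.10) and *Hey1* (0.70) were higher, with limma adjusted p-values of 0.0190, 0.0443, 0.0163 and 0.0250, beside 29.1% of all tested genes. *Hey1* in males had a difference of 0.54 (limma adjusted p = 0.0580). After rescaling no member passed within males or within females, where 24.1% and 26.1% of all tested genes did, nor on recovered reads with limma-voom, where 23.1% and 26.3% did. With a library left out after rescaling, *Hey1* was called in both sexes without KO male replicate 3 and in females without KO female replicate 2. At an unadjusted limma p below 0.05 after rescaling were *Dll4* (0.0389) and *Hey1* (0.0450) in males, beside 4423 of the 12278 tested genes, and *Hes1* (0.0337) and *Hey1* (0.0239) in females, beside 4661. These 2 of 9 members are a smaller share than that of all tested genes in either sex. Leaving out a single library changed several of these calls in TPM as deposited. In males, *Rbpj* was lost without WT male replicate 1 (limma adjusted p = 0.0529), and *Hes1* without WT male replicate 2, WT male replicate 3, KO male replicate 1 or KO male replicate 2 (up to 0.155). In females, *Notch2* was lost without WT female replicate 1, WT female replicate 2 or KO female replicate 2 (up to 0.0775), and *Hes1* without WT female replicate 3 or KO female replicate 3 (up to 0.0774). *Hey1* in females was lost without any of the 3 WT females, KO female replicate 1 or KO female replicate 3 (up to 0.0963), and *Rbpj* in females was lost in 9 of 12 fits (up to 0.125) and kept only without WT male replicate 2, KO male replicate 1 or KO male replicate 3. In males, *Notch1* gained a call without WT male replicate 2 or KO male replicate 1 (limma adjusted p = 0.0239 and 0.0399), and *Hey1* without KO male replicate 3, KO female replicate 1 or KO female replicate 2 (0.0167, 0.0451 and 0.0372). With a pseudocount of 0.1 *Hey1* was called in males (1.90, limma adjusted p = 0.0184) and not in females (1.36, limma adjusted p = 0.0921). *Rbpj* in females was also lost with a term for the early series of animal numbers, which holds 1 WT and 1 KO female (limma adjusted p = 0.0567) and without the filter on low values (0.0549), and *Hes1* in males without that filter (0.0667). With libraries scaled to the genes outside the 20 most abundant, *Hes1* in males and *Rbpj* in females were not called.

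The male and female genotype effects were not shown to differ for any member: limma gave an adjusted interaction p of 0.837 to 0.981 for the 9 tested members, where 0.912% of all tested genes passed, and none passed on recovered reads, where 0.57% did. No member had an unadjusted interaction p below 0.05, beside 1087 of the 12278 tested genes. Over the members the interaction estimates ran from -0.23 for *Hes1* to 0.22 for *Jag1* in TPM as deposited. On recovered reads they ran from -0.96 for *Dll4* to 1.22 for *Hey1*, whose estimate as deposited was -0.16. Between the sexes, all 3 WT females lay above all 3 WT males for *Hes1*, *Hey1* and *Jag2*, as for 27.5% of all tested genes, and after rescaling for *Hes1* and *Hey1*, beside 14.4%. The WT females lay below the WT males for *Notch2* after rescaling, beside 14.1%. All 3 KO females lay above all 3 KO males for *Hes1* alone among the members, as for 5.09% of all tested genes and for 5.39% after rescaling. The male minus female difference of *Hes1* was -0.93 ± 0.314 in WT (limma adjusted p = 0.0974) and -1.16 ± 0.314 in KO (limma adjusted p = 0.692), and neither passed the adjustment. *Hey1* had male minus female differences of -0.42 in WT (limma adjusted p = 0.237) and -0.58 in KO (limma adjusted p = 0.859). On recovered reads these were -2.64 in WT and -1.42 in KO (limma-voom adjusted p = 0.165 and 0.784). No member was called between the sexes in WT, where 5.74% of all tested genes were, or in KO, where 0.0814% were, nor by limma-voom, where 3.89% and 0.0489% were. At an unadjusted limma p below 0.05, *Hes1* was the sole member in WT (0.0111), beside 3148 of the 12278 tested genes, and *Hes1* (0.00284) and *Hey1* (0.0192) were the members in KO, beside 655.

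TPM is corrected for gene length, so levels can be ranked between genes. In WT the order of mean TPM was *Hes1* 9.43, *Notch2* 7.35, *Rbpj* 4.05, *Notch1* 3.50, *Jag1* 1.22, *Dll4* 1.15, *Heyl* 0.687, *Notch3* 0.473, *Hey1* 0.281 and *Jag2* 0.0533. In KO the order was *Hes1* 21.03, *Notch2* 14.4, *Rbpj* 5.99, *Notch1* 5.54, *Jag1* 1.47, *Hey1* 1.03, *Dll4* 0.882, *Heyl* 0.856, *Notch3* 0.648 and *Jag2* 0.0902. Only *Notch2* over *Rbpj* and *Notch1* over *Jag1* had ranges that did not overlap in either genotype, as had *Notch3* over *Jag2* in KO. The other neighbours overlapped. These means pool the sexes, and the order turned in some groups: *Notch2* averaged above *Hes1* in WT males (7.97 TPM, with *Hes1* at 4.44 to 7.58) and KO males (16.3 and 12.7 TPM), and *Dll4* above *Jag1* in WT females (1.45 and 1.41 TPM). Over both sexes the first 5 places were the same in both genotypes, and *Hey1* went from place 9 in WT to place 6 in KO.

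Within the receptor family, *Notch2* made up 60.9% ± 6.56 (SD, n = 6) of the summed TPM of *Notch1* to *Notch4* in WT and 65.9% ± 6.31 (SD, n = 6) in KO. *Notch1* made up 28.6% ± 5.55 and 26.1% ± 4.44 (SD, n = 6 each). Both shifts were smaller than the spread between mice. Among *Jag1*, *Jag2*, *Dll1* and *Dll4*, the Jagged and Delta-like ligands above 0, *Dll1*, which was not a member, held the largest share, 45.8% ± 9.84 in WT and 55.9% ± 9.47 in KO (SD, n = 6 each). *Dll4* held 25.2% ± 5.47 in WT and 14.9% ± 7.63 in KO, with ranges of 17.2% to 31.6% and 3.87% to 24.2% that overlapped. *Jag1* held 27.9% ± 6.39 and 27.6% ± 8.04. Of the 3 member ligands, *Dll4* was the one whose average share was lower in KO by more than 1 SD of either genotype.

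Ratios of 2 measures within a library do not depend on how libraries are scaled, apart from the pseudocount. Over 18 such ratios, each tested by an exact permutation of genotype within sex (two-sided, 400 arrangements, smallest possible p 0.005), none had an adjusted p below 0.05, and the smallest was 0.06. At an unadjusted p below 0.05 there were 8. *Notch3* relative to *Notch2* averaged -2.49 ± 0.244 in WT and -3.19 ± 0.535 in KO (log2, SD, n = 6; exact permutation p = 0.01, adjusted p = 0.06). *Heyl* relative to *Hes1* averaged -2.55 ± 0.444 in WT and -3.42 ± 0.846 in KO (SD, n = 6; exact permutation p = 0.025, adjusted p = 0.09). The 2 ratios lay below the WT mean in 6 of 6 and 5 of 6 KO mice. *Notch3* to *Notch2* passed without KO male replicate 1 or KO female replicate 1 (exact permutation adjusted p = 0.045 each).

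**Figure D3:**
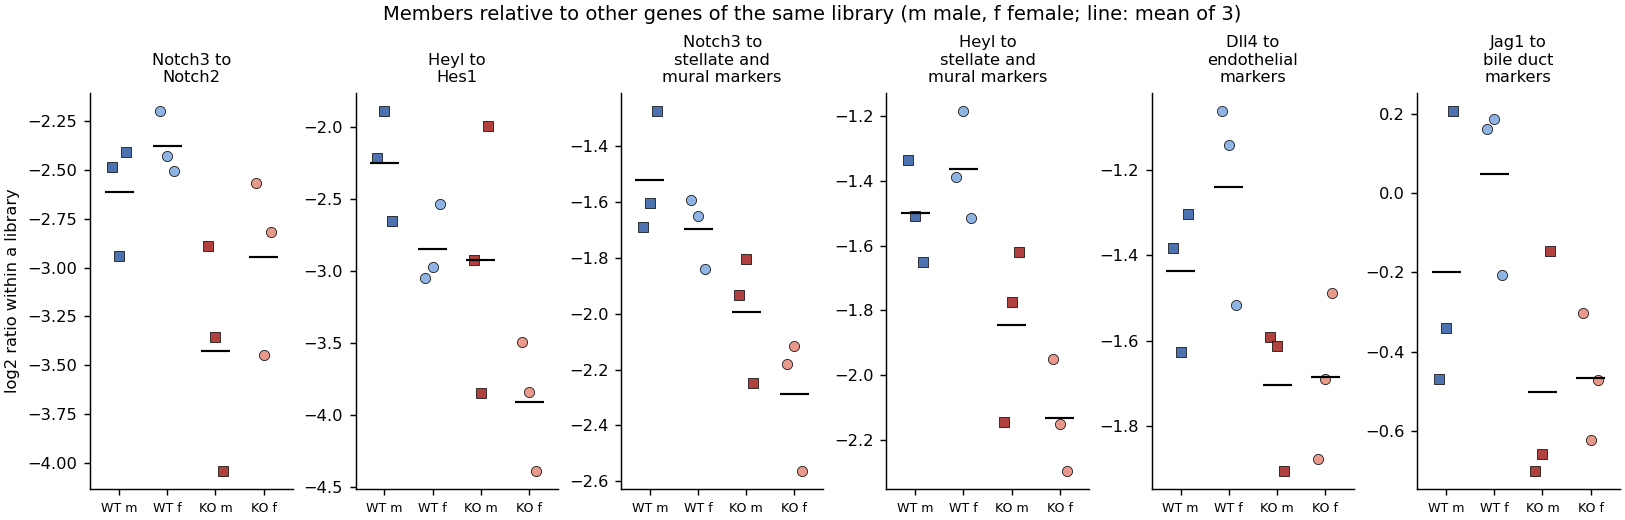
Log2 ratio within a library (vertical axes) of a member to another member, or to the mean of a marker list, in each of the 12 livers, where a point is 1 mouse and a line the mean of 3. In the *Notch3* to stellate and mural panel all 3 KO mice of each sex lie below the 3 WT mice of that sex, with a difference that falls to -0.23 once *Col1a1* is left out of the list.

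The cell types that carry these genes were followed through fixed marker lists. Stellate and mural markers summed to 70.8 to 174 TPM in WT and 129 to 321 TPM in KO, with 5 of 10 tested markers higher as deposited and 2 on both scales (*Pdgfrb* and *Col1a1*), shares close to the 50.1% of all tested genes higher as deposited and the 20.9% higher after rescaling. After rescaling *Lrat*, the retinol-storing enzyme of stellate cells (-0.91), and *Rgs5*, a pericyte marker (-0.78), were lower (limma adjusted p = 0.00334 and 0.0173), and neither was called as deposited. Relative to the mean of that list, *Notch3* differed by -0.53 (exact permutation p = 0.005, the smallest possible, adjusted p = 0.06) and *Heyl* by -0.56 (exact permutation p = 0.01, adjusted p = 0.06). *Jag1* relative to the same list differed by -0.54 (exact permutation p = 0.04, adjusted p = 0.09). The *Notch3* ratio passed without KO male replicate 1, KO male replicate 3 or KO female replicate 1 and the *Heyl* ratio without either of the last 2 (exact permutation adjusted p = 0.036 to 0.045). These ratios rest in large part on *Col1a1*, the collagen gene with the largest difference of the list: without it *Notch3* differed by -0.23, *Heyl* by -0.26 and *Jag1* by -0.24 (exact permutation adjusted p = 0.141, 0.141 and 0.354). With the whole list all 3 ratios were lower on average in both sexes, and *Notch3* and *Heyl* themselves passed no test of level.

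Endothelial markers spread widely in KO, from 38.8 to 153 TPM, beside 59.6 to 92.5 TPM in WT. Of 12 tested, 2 were higher and 1 lower as deposited, and on both scales *Vwf* was higher and *Kdr*, the main VEGF receptor, lower. *Lyve1* was lower after rescaling alone (-0.46, limma adjusted p = 0.0475). *Dll4* relative to the mean of that list differed by -0.36 (exact permutation p = 0.03, adjusted p = 0.09), *Notch1* by 0.42 (p = 0.19, adjusted p = 0.21) and *Hey1* by 0.50 (p = 0.075, adjusted p = 0.13), each by the same exact test. *Notch1* passed without KO female replicate 1 (0.62, exact permutation adjusted p = 0.045) and *Hey1* without KO male replicate 3 (0.72, exact permutation adjusted p = 0.036). None of these passed the adjustment, and *Dll4* was not tested against *Notch1*. Arterial markers summed to 5.61 to 9.24 TPM in WT and 6.78 to 22.6 TPM in KO.

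Bile duct markers summed to 37.6 to 68.0 TPM in WT and 265 to 731 TPM in KO, mostly *Spp1*, the osteopontin gene, which macrophages and injured hepatocytes also make. Of 6 tested, *Sox9*, *Spp1* and *Cldn4* were higher on both scales and *Epcam* was lower on both. *Cldn4* averaged 0.199 TPM in WT and 0.892 TPM in KO, and reached the filter of 0.5 TPM only through KO. *Krt19*, the keratin that defines bile duct cells, had a mean of 1.38 TPM ± 0.641 in WT and 1.24 TPM ± 0.728 in KO and was not called, and *Cftr* and *Sctr* were near 0 in both. *Jag1* relative to the mean of this list differed by -0.41 (exact permutation p = 0.035, adjusted p = 0.09), *Notch2* by 0.29 (p = 0.08, adjusted p = 0.13) and *Hes1* by 0.44 (p = 0.135, adjusted p = 0.16). Without *Spp1* in the list *Jag1* differed by -0.09, *Notch2* by 0.61 and *Hes1* by 0.76 (exact permutation adjusted p = 0.662, 0.09 and 0.126), so these sizes depended on that gene. With the whole list the *Jag1* ratio passed without KO male replicate 3 (-0.50, exact permutation adjusted p = 0.036). Macrophage markers summed to 72.1 to 235 TPM in WT and 344 to 713 TPM in KO, with 8 of 8 higher as deposited and 7 of 8 on both scales. Portal fibroblast markers summed to 3.10 to 6.21 TPM in WT and 7.87 to 20.1 TPM in KO, with 3 of 4 tested higher on both scales, and the other leukocyte markers to 2.26 to 18.4 TPM and 9.96 to 44.3 TPM. The part of these shifts in the values of *Notch2*, *Hes1* and *Hey1* was not tested.

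The rest of the pathway was followed through 63 genes in 8 lists, of which 54 were high enough to test. In TPM as deposited 37 were higher in KO and 2 lower, beside the background of 50.1% and 4.82%. After rescaling 14 were higher and 5 lower, beside 20.9% and 18.7%, and all 14 and 2 of the 5 had the same call as deposited. Their median difference was 0.47 as deposited and 0.10 after rescaling, close to those of the members. None of the 63 genes is a member, and each list gathers the genes of a role.

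Of the 5 ubiquitin ligases listed for ligand endocytosis, 4 were higher on both scales: *Mib2*, *Neurl1a*, *Neurl1b* and *Neurl3*. Of all tested genes, 50.1% were higher as deposited and 20.9% after rescaling. *Neurl1a* and *Neurl1b* averaged 0.0754 and 0.302 TPM in WT and reached the filter of 0.5 TPM only through KO. *Mib1*, the ligase required for Jagged and Delta-like ligands in most tissues, was not called (0.29, limma adjusted p = 0.10). After rescaling *Mib1* was at -0.14 (limma adjusted p = 0.359). Ligand endocytosis was not measured. *Neurl3* had means of 2.98 TPM ± 1.13 in WT and 10.9 TPM ± 3.15 in KO (SD, n = 6) and a difference of 1.58 as deposited and 1.2 after rescaling (limma adjusted p = 1.81e-05 and 0.000227). *Neurl1a* had means of 0.0754 TPM ± 0.0335 and 1.12 TPM ± 0.216 and differences of 0.97 and 0.84. *Mib2* had means of 10.4 TPM ± 1.36 and 20.9 TPM ± 2.36 and differences of 0.94 and 0.51.

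Of the 10 genes of receptor cleavage, 8 were higher as deposited and 4 on both scales. *Adam10*, the protease that makes the first cut of an activated receptor, had means of 10.3 TPM ± 1.06 in WT and 23.9 TPM ± 5.58 in KO (SD, n = 6), with differences of 1.12 and 0.68 (limma adjusted p = 1.29e-05 and 0.000621). *Adam17*, a related protease, had differences of 0.86 and 0.43, and *Ncstn*, the nicastrin subunit of gamma-secretase, 0.70 and 0.25. *Aph1b*, another gamma-secretase subunit, was the fourth, but it shares most of its sequence with *Aph1c*, so its value is uncertain. Of the 5 genes of receptor glycosylation, 3 were higher as deposited and *Lfng*, a Fringe enzyme that shifts receptors towards Delta-like ligands, on both scales, with means of 1.5 TPM ± 0.795 and 3.86 TPM ± 1.53 (SD, n = 6) and differences of 0.96 and 0.65.

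Of 8 nuclear co-activators, 6 were higher as deposited, including *Maml1* (0.44), and none was higher after rescaling, when *Kat2b* was lower (-0.43). Of 11 co-repressors, 7 were higher and 1 lower as deposited, and on both scales *Tle4* was higher (0.84 and 0.44) and *Tle1* lower (-0.44 and -0.87). Both encode Groucho-family proteins that Hes repressors recruit. Of 10 inhibitors and ubiquitin ligases, 7 were higher as deposited, and *Numbl* (1.21 and 0.98), *Dtx3* (1.30 and 0.92) and *Dtx4* (1.71 and 1.30) on both scales. *Numbl* is a relative of *Numb*, an inhibitor of Notch, and *Dtx3* and *Dtx4* belong to the Deltex family of ubiquitin ligases. After rescaling 2 genes of this list were lower, *Numb* itself (-0.25, limma adjusted p = 0.0392) and *Itch*, a ubiquitin ligase (-0.49, limma adjusted p = 0.000585), and neither was called as deposited (0.19 and -0.05). *Nrarp*, a feedback inhibitor induced by Notch, had means of 0.894 TPM ± 0.519 and 1.03 TPM ± 0.914 and was not called (0.05, limma adjusted p = 0.835).

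The other effectors parted in direction. *Hes6*, a relative of *Hes1* known to oppose it, had means of 115 TPM ± 35.9 in WT and 48.4 TPM ± 8.67 in KO (SD, n = 6). All 6 KO values, 35.8 to 57.2 TPM, lay below all WT values, 65.8 to 145 TPM, as for 1.88% of all tested genes, and the difference was -1.18 as deposited and -1.64 after rescaling (limma adjusted p = 0.000482 and 2.84e-05). *Sox9*, a Notch and YAP target of the bile duct lineage, had means of 3.2 TPM ± 1.84 in WT and 11.0 TPM ± 3.68 in KO, with 1.22 to 5.89 TPM in WT below 7.0 to 16.2 TPM in KO, a separation that 28.7% of all tested genes had. Its difference was 1.57 as deposited and 1.17 after rescaling (limma adjusted p = 0.000158 and 0.00417). *Hes5* and *Dll3* were listed at 0 TPM in all 12 libraries, and *Hes2*, *Hes3*, *Hes7* and *Hey2* were too low to test.

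**Figure D4:**
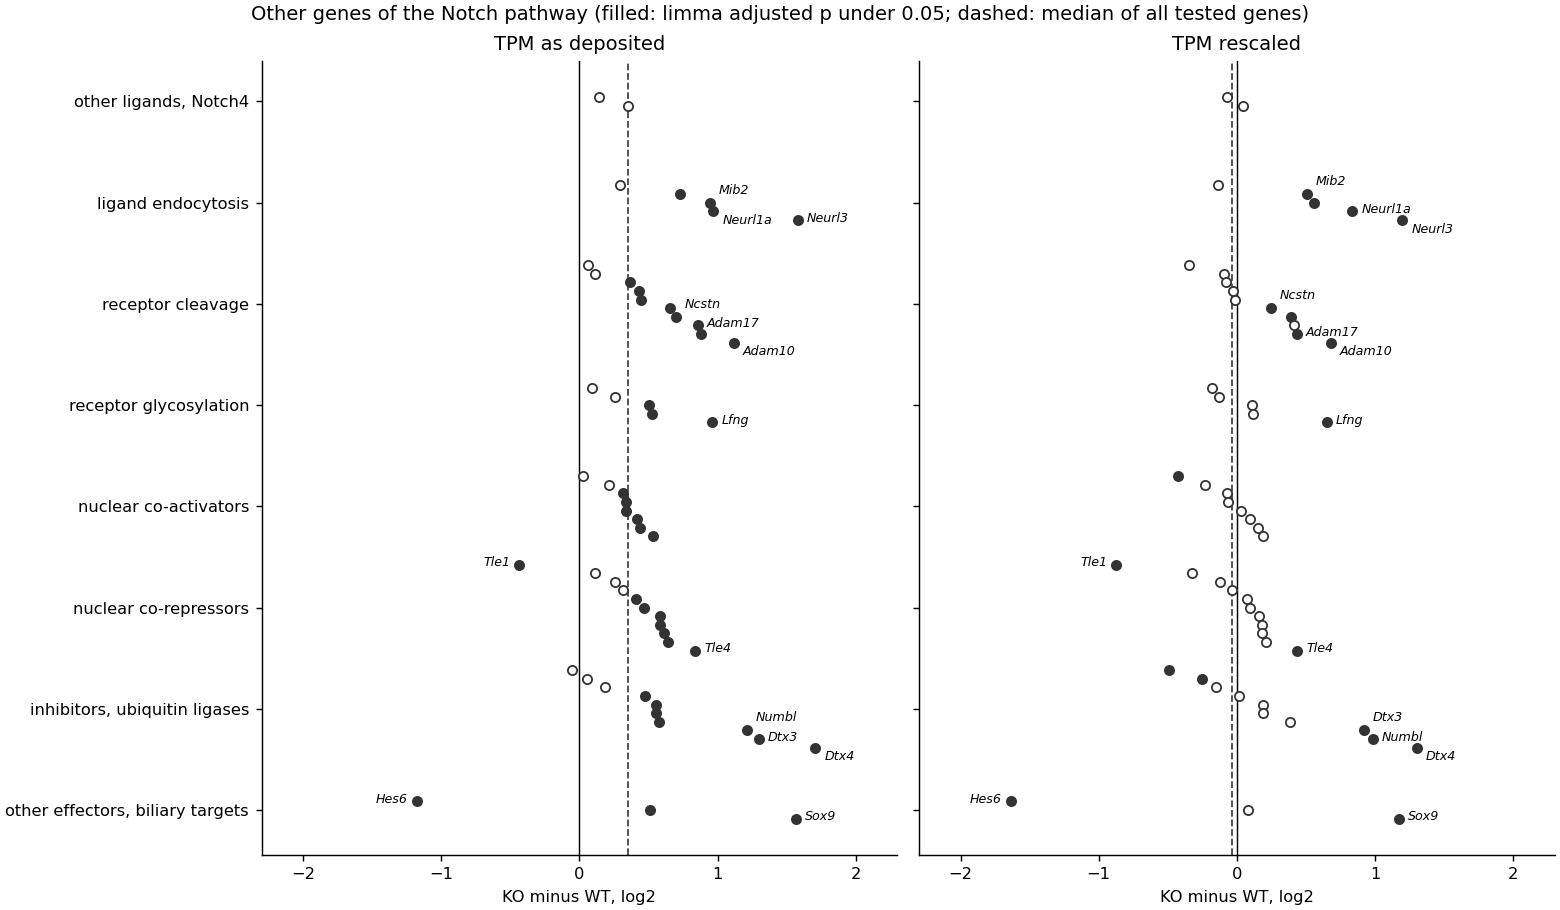
KO minus WT difference (log2, horizontal axes) of the 54 tested genes of 8 Notch pathway lists, on TPM as deposited and after rescaling, filled where the limma adjusted p was below 0.05, with the dashed line at the median of all tested genes. *Sox9*, *Dtx4* and *Neurl3* lie farthest to the right and *Hes6* farthest to the left on both scales.

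The genes whose values followed each member most closely from mouse to mouse, once the means of the 4 groups were removed, were found by Pearson's r over the 12 libraries, given as a description since all points share library composition and depth. *Notch2* followed *Ubr3* (r = 0.985) and *Tpr* (0.985), and *Rbpj* followed *Apc* (0.978) and *Ipo5* (0.975). *Hey1* followed *Rps14* (0.981) and *Mrpl30* (0.977), *Hes1* followed *Hopx* (0.944) and *Ilk* (0.923), and *Notch1* followed *Cyp4v3* (0.918) and *Gm37240* (0.916). *Dll4* followed *Col13a1* (0.970) and *Fgd3* (0.961), *Jag1* followed *Nek9* (0.972) and *Bckdhb* (0.970), *Notch3* followed *Tamm41* (0.935) and *Ccl19* (0.930), and *Heyl* followed *Dct* (0.979) and *Pcbp3* (0.937). Within the members the closest pair was *Notch2* and *Rbpj* (r = 0.837), and *Hes1* was closest to *Hey1* (0.536).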

How the data were processed

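Bulk RNA-seq of 12 mouse livers was used as deposited. The authors' table gives TPM per gene and library, per the file headers, and each column sums to 1000000. The table also holds the authors' own fold change, log2 fold change and FDR p-value, rounded to 2 decimals, per the file headers. The submitters' processing notes name edgeR and the build GRCm38; the aligner, counter and use of strand are not given in the sources used here. Groups came from the sample labels, and 0 sample columns were left unmatched. TPM, as deposited by the authors, were transformed as log2(TPM + 1). The 12278 of 25676 genes that averaged 0.5 TPM or more entered limma 3.58.1 (R 4.3.3; eBayes with trend) with all 12 libraries, with sex as covariate for genotype and 4 group means otherwise. P-values were two-sided, adjusted by Benjamini-Hochberg over all tested genes, with a threshold of 0.05. Fold changes understate low genes. The second scale divided TPM by median-of-ratios size factors over 12819 genes. Whole reads came out within 0.02 for 16571 of 16572 genes with at least 2 values above 0 and held 91.7% to 95.8% of each library's TPM; they were fitted with limma-voom, an alternative chosen after seeing the data, which called 4829 genes. Ratios used exact permutation within sex. The upper bounds given for libraries without a read cover counting error only. Each ± value is a standard error of the fit or an SD over mice. The fits were tested on simulated data. Named were all members, up to 3 genes per pathway list with the largest difference among those called alike on both scales, the 2 genes most correlated with each member, and the defining markers; *Mib1*, *Maml1*, *Kat2b*, *Nrarp*, *Neurl1b*, *Aph1b*, *Numb*, *Itch*, *Lrat*, *Rgs5*, *Lyve1* and *Dll1* were named after their values were seen. The members, lists and tests were chosen with earlier results of these data known. GENCODE M21 positions matched 25635 of 25676 identifiers. Exons and isoforms were not analysed here, and values of some single genes of the lists are not reported here.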

Additional observations from a re-analysis of the deposited data

Results flagged for a closer look

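The *Notch2* value of WT male replicate 2, 9.55 TPM as deposited, lay far above the other 5 WT livers, which measured 6.30 to 7.44 TPM. The gap exceeds Dixon's 95% limit for a group of 6. Of 56 such checks over the members and their ratios, this was the only one beyond its limit, and chance alone puts about 1 in 20 groups there. The value still lay below the lowest KO value of 10.6 TPM. WT male replicate 2 also had the lowest size factor of all libraries (0.716) and the fewest detected genes (14321). Its label alone ends the animal number in a letter, and its sequencing number lies apart from those of the other libraries. Whether its handling differed is not given in the sources used here, and a part of this in its *Notch2* value was not tested. Without this library the KO minus WT difference of *Notch2* was 0.89 ± 0.167 (SE, limma adjusted p = 0.000761) as deposited, beside 0.84 with all libraries.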

How the results depend on the processing

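In TPM as deposited, the 5 members higher in KO, and the absence of lower ones, were the same count when each library was left out, with a pseudocount of 0.1, without the filter, without the trend and with a term for the early animal series. Within the sexes, the term for the early animal series ended the call of *Rbpj* in females (limma adjusted p = 0.0567). Calls changed with the scale. After median-of-ratios rescaling 2 members were higher and 1 lower, and on recovered reads with limma-voom 3 were higher. Under these settings *Jag1* (-0.12 and -0.19), *Notch3* (-0.0089 and -0.026) and *Heyl* (-0.069 and -0.11) changed sign, and *Notch1* (0.17 and 0.23) and *Rbpj* (0.082 and 0.11) lost their calls. *Hes1* lost its call after rescaling (0.57) and kept it on reads (0.68), and *Dll4* gained one after rescaling (-0.45) that was lost on reads (-0.89). Genes called in males fell to 2959 after rescaling and 2831 on reads, interaction genes to 70 and sex genes in KO to 6 on reads. The cause was not tested.

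Leaving out each library in turn gave 6277 to 6880 genes called for genotype, 4450 to 5659 in males, 3081 to 4564 in females, 75 to 176 for the interaction (highest without WT male replicate 3), 291 to 1698 between WT sexes (highest without WT male replicate 3, 291 to 451 without each other WT library, 705 with all) and 6 to 10 between KO sexes. After rescaling it gave ranges of -0.19 to -0.066 for *Jag1*, -0.55 to -0.35 for *Dll4* and 0.081 to 0.29 for *Notch1*. Those of *Notch2*, *Notch3* and *Rbpj* were 0.32 to 0.51, -0.055 to 0.034 and 0.047 to 0.14. Those of *Hes1* and *Heyl* were 0.41 to 0.74 and -0.16 to 0.0031. As deposited *Jag1* ranged from 0.035 to 0.20, *Heyl* from 0.024 to 0.22 and *Dll4* in females from -0.34 to 0.15. Without the gene of largest change in each marker list (*Spp1*, *Col1a1* and *Vwf*, chosen after seeing the data) none of the 18 ratios passed, and *Jag1* to bile duct markers went from -0.41 to -0.09. Adjusted ratios past the threshold numbered 0 to 5, the most without KO male replicate 3, with 4 without KO female replicate 1 and 2 without KO male replicate 1. The ratio of *Jag2* to *Jag1* changed sign with a pseudocount of 0.1 (0.00641), after rescaling (0.14) and over left-out libraries (-0.20 to 0.031), as did *Jag2* to endothelial markers (0.094, 0.26 and -0.20 to 0.059) and, with a pseudocount of 0.1, *Hey1* to *Hes1* (0.57). No paired analysis was possible because replicate numbers were given in deposition order and pair no mice. Low reads limit *Jag2*, *Hey1*, *Dll4*, *Heyl* and *Notch3*.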
